A study of Mus musculus with 80 samples.

Results

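The cells described here are hematopoietic stem cell (HSC)-like progeny found in mouse bone marrow 14 days after old HSCs had been transplanted. They were taken from 2 single-cell RNA-seq libraries, 1 per donor group, by 3 transcripts: at least 1 UMI (unique molecular identifier, a counted RNA molecule) of Procr, 0 UMIs of Cd48 and 0 UMIs of Flt3, among barcodes with at least 2000 detected genes and at most 5% mitochondrial UMIs. The rule found 443 members among 4339 kept cells, with 164 of 2406 in the library labelled CD150L and 279 of 1933 in the library labelled CD150H. The members were thus chosen by the measured values of Procr, Cd48 and Flt3, and the levels of these 3 genes in the members are not results.

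The donors were C57BL/6 males of 22 to 24 months carrying the CD45.2 form of the leukocyte antigen CD45. Their LT-HSCs, LSK cells (lineage-negative, c-Kit+, Sca-1+) that carried CD150 but neither CD34 nor CD48, were divided by surface CD150. The lowest 25% (CD150L) and the highest 25% (CD150H) were transplanted separately into lethally irradiated young CD45.1 recipients, together with helper marrow depleted of Sca-1+ cells. Donor-derived LSK cells were sorted from the recipients for the day 14 libraries, so every member had passed through transplantation and an LSK gate. The labels do not say how many donors or recipients a library pools. Other samples of the series used below are 12 bulk RNA-seq libraries of old HSCs sorted into 4 groups by CD150 (G1 to G4, 3 mice each), 6 bulk libraries made 4 days after transplantation (CD150L and CD150H, 3 replicates each), and 1 single-cell library each of fresh old and fresh young HSCs. Young mice were 2 to 3 months old.

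HSCs sit at the top of the blood hierarchy, and most are out of the cell cycle. Procr encodes the endothelial protein C receptor, a surface protein of HSCs; CD48 and the cytokine receptor FLT3 appear as HSCs become multipotent and lymphoid-primed progenitors. CD150, the product of Slamf1, marks HSCs too, and HSCs with much CD150 are known for a bias towards platelets and myeloid cells.

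The depth of the libraries differed, and this bears on every share given here. Kept cells had a median of 19436 UMIs in the CD150L library and 30651 in the CD150H library, and members had medians of 11052 and 22821 UMIs. The members of either library were shallower than its other kept cells, whose medians were 20002 and 31943 UMIs. The CD150H library also held 5172 barcodes with under 500 detected genes, against 484 in the CD150L library. Of 12 barcodes found in both libraries, 3 were kept cells and 0 were members. With 1 library per group there is no replicate, so no difference between CD150H- and CD150L-derived cells was tested. Intervals (95%) cover counting error only.

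Members made up 6.82% (exact Clopper-Pearson interval 5.84 to 7.90) of the kept CD150L cells and 14.4% (12.9 to 16.1) of the kept CD150H cells. Thinning every kept cell to 7499 UMIs before the rule was applied gave 143 of 2285 cells (6.26%) and 198 of 1926 cells (10.3%), leaving out 121 CD150L and 7 CD150H cells that were shallower. The share was thus higher in the CD150H library at equal depth too, by a smaller margin. The cells left out held 23 CD150L and 0 CD150H members. Of the members after thinning, 98 of 143 (CD150L) and 145 of 198 (CD150H) had also met the rule at full depth. The criteria differed in what they let through: Procr was detected in 30.5% of CD150L and 35.3% of CD150H cells, Cd48 in 76.5% and 59.3%, and Flt3 in 36.5% and 18.7%. These shares were taken at full, unequal depth. After thinning, Procr was detected in 13.3% of the other CD150L and 10.1% of the other CD150H cells, and in 69.5% and 51.97% of members. Members and other cells had been split by Procr itself at full, unequal depth. These thinned shares therefore cannot compare Procr detection between the libraries. Among Procr-positive cells, 22.3% and 40.85% were members. A Procr count of exactly 1 admitted 100 of the 164 CD150L members and 101 of the 279 CD150H members, while the highest counts were 7 and 11 UMIs. Just outside the rule lay 63 CD150L and 74 CD150H cells that a single Cd48 UMI kept out, and 32 and 16 that a single Flt3 UMI kept out. Requiring at least 2 Procr UMIs lowered the shares to 2.66% and 9.21%.

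**Figure D1:**
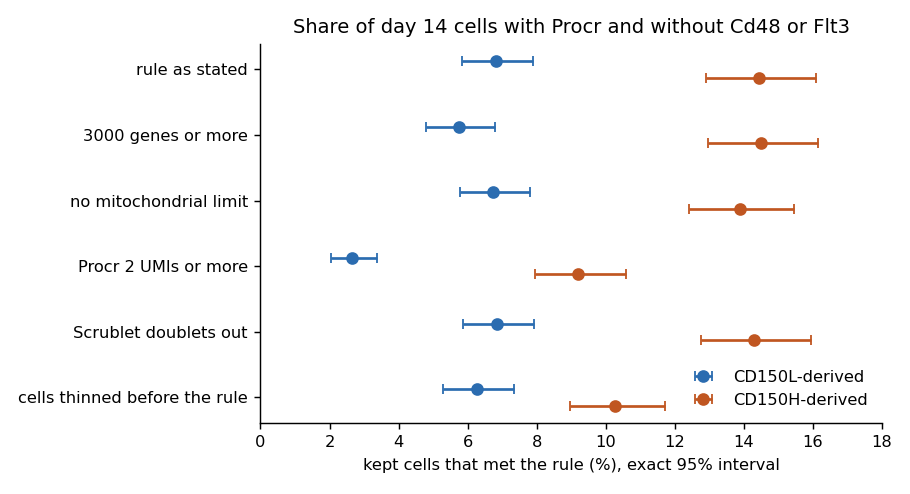
Share of kept cells that met the rule (x axis, percent) in each day 14 library, for the rule as stated and for alternatives to it; points are libraries and bars are exact 95% binomial intervals. The CD150H point is to the right of the CD150L point in every row, also after thinning (10.3% against 6.26%).

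The label was checked against HSC genes. After thinning, members of either library had a median of 8 of 19 HSC genes detected per cell (the list without Procr), against 5 in the other CD150L cells and 6 in the other CD150H cells. Mecom, a transcription factor needed for HSC maintenance, stood at 141.5 CPM (UMIs of the gene per 1000000 UMIs, summed over cells) in CD150H members and 139 in CD150L members, against 55.6 and 55.1 CPM in the other kept cells. Mllt3, a regulator of HSC self-renewal, stood at 129 and 139 CPM against 49.2 and 38.5. Hlf, a transcription factor of primitive HSCs, was detected in 70.6% of thinned CD150H and 86.5% of thinned CD150L members, against 40.98% and 59.9% of the other kept cells. In granulocyte-monocyte-primed cells (no Procr, at least 2 of 5 granulocyte-monocyte genes) Hlf was detected in 28.4% and 42.7%, and in Flt3-positive cells without Procr in 45.6% and 61.05%. Slamf1 did not separate the CD150L members from their surroundings: it was detected in 12.8% of thinned members and 11.5% of the other cells. In the CD150H library it was detected in 30.5% of members and 22.3% of the other cells.

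Besides the genes of the rule, members of both libraries shared a set of differences from the other kept cells. Of 3195 genes compared, those with at least 50 CPM in members or other cells of each library, 31 were more than 2-fold higher and 11 more than 2-fold lower in the members of both libraries. Furthest above the other cells, by the smaller of the 2 libraries' ratios, was Iigp1, an interferon-induced GTPase, at 128 CPM against 32.4 in the CD150H library and 109 against 22.1 in the CD150L library. Nkx2-3, a homeobox factor, followed with 76.2 against 19.6 CPM and 80.9 against 20.2 CPM. Ltb (lymphotoxin beta) and Pdzk1ip1, a membrane protein of primitive HSCs, were also among the 12 highest, as were the interferon-responsive genes Ifi44 and Irf7. The 3 furthest below were granule genes of the neutrophil lineage. Elane, which encodes neutrophil elastase, was at 3.28 CPM in CD150H members against 212 CPM in the other cells of that library, and at 8.04 against 256 CPM in the CD150L library. Mpo (myeloperoxidase) stood at 4.56 against 173 CPM and 9.46 against 208 CPM, and Ctsg (cathepsin G) at 6.28 against 305 CPM and 24.1 against 312 CPM. These contrasts compare cells that the rule split within each library and are descriptions without a test.

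CD150H-derived and CD150L-derived members were then compared gene by gene. Of 6672 genes with at least 20 CPM in a group, 35 (0.525%) were more than 2-fold higher and 63 (0.944%) more than 2-fold lower in CD150H-derived members, and the median log2 ratio was 0.01. In the other kept cells of the same libraries, 30 genes (0.45%) were more than 2-fold higher and 20 (0.3%) more than 2-fold lower. Of the 35 higher genes 15 were also past 2-fold in those cells (15 of 30 there), and of the 63 lower genes 15 were (15 of 20 there). The interval of the ratio lay wholly beyond 2-fold for 9 higher and 26 lower genes. When cells were thinned before the rule, 17 of the 35 and 27 of the 63 were past 2-fold (80 and 71 in all). For the named genes below the ratio in the other kept cells is given beside that in the members, and no difference between the 2 ratios was tested.

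**Figure D2:**
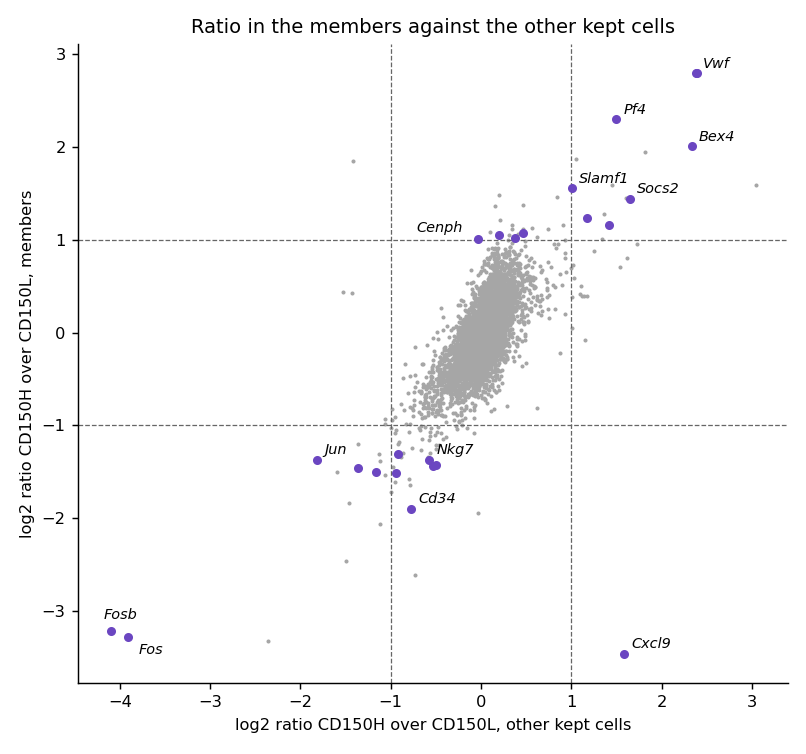
Each point is a gene; the x axis is the log2 ratio of CD150H over CD150L CPM in the other kept cells, the y axis the same ratio in the members, purple points are the 24 named genes and dashed lines mark 2-fold. Vwf, with Cavin2 beside it, lies past 2-fold on both axes, Cd34 (-0.78 and -1.90) is past it on the y axis, and Cxcl9 lies on opposite sides of 0 (1.59 and -3.46).

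Among genes with at least 50 CPM in a group, Vwf and Cavin2 had the largest ratios towards CD150H. Vwf, which encodes von Willebrand factor and marks platelet-biased HSCs (chromosome 6, 125552948 to 125686679, GRCm38.p6), stood at 85.2 CPM (interval 78.5 to 92.3) in CD150H members and 12.3 CPM (8.03 to 18.02) in CD150L members, a log2 ratio of 2.79 (2.23 to 3.42). In the other kept cells the Vwf levels were 52.3 and 10.1 CPM, a log2 ratio of 2.38. Cavin2, a coat protein of caveolae that is abundant in platelets (chromosome 1, 51289126 to 51302960), stood at 84.9 CPM in CD150H and 12.3 CPM in CD150L members, again a log2 ratio of 2.79 (2.22 to 3.41), beside 2.39 in the other cells. Its levels were higher outside the members, at 103 and 19.7 CPM in the other kept cells and 102.5 and 23.2 CPM in barcodes with under 500 genes. A Cavin2 UMI was found in 30.1% of thinned CD150H and 5.67% of thinned CD150L members, against 31.45% and 7.79% of the other kept cells and 20.9% and 3.28% of granulocyte-monocyte-primed cells. For Vwf, detection per cell went the same way as the level at equal depth, since it was found in 42.3% of thinned CD150H members (36.4 to 48.3) and 7.80% of thinned CD150L members (3.96 to 13.5). In the other kept cells the thinned Vwf shares were 26.1% (CD150H) and 5.46% (CD150L), so this difference was not limited to the members. The granulocyte-monocyte-primed cells gave 13.3% and 2.09% after thinning, and without thinning the member shares were 71.7% and 10.98%. Vwf and Cavin2 stayed beyond 2-fold under every setting of cells and scaling that was run, with log2 ratios of 2.23 to 3.09 and 1.74 to 3.43.

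Pf4 was the most abundant gene of the megakaryocyte list in CD150H members, and its ratio varied with the cells chosen. It encodes platelet factor 4, a chemokine of platelet granules (chromosome 5, 90772435 to 90773383). Its level was 256 CPM (244 to 268) in CD150H members and 52.0 CPM (42.8 to 62.7) in CD150L members, a log2 ratio of 2.30. In the other kept cells, however, it was higher than in the members, at 592 and 209 CPM (log2 ratio 1.50), and in barcodes with under 500 genes it reached 612 and 239 CPM. The share of thinned CD150H members with a Pf4 UMI was 36.9%, close to the 34.5% of granulocyte-monocyte-primed cells of that library. In the CD150L library these shares were 25.5% and 15.8%. A single CD150H member held 15.45% of the Pf4 UMIs of CD150H members. The log2 ratio of Pf4 was 0.98 when cells were thinned before the rule, 0.88 among members scored G0/G1 and 0.41 among members with 10000 to 20000 UMIs. The part of RNA free in the droplets in the Pf4 difference was not tested.

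Slamf1 itself was higher in CD150H members, at 51.4 CPM (46.2 to 56.9) against 17.5 CPM (12.3 to 24.1), a log2 ratio of 1.55 against 1.005 in the other cells. It encodes the antigen by which the donor HSCs were sorted (chromosome 1, 171767131 to 171801184). At least 1 Slamf1 UMI was found in 179 of 279 CD150H members and 33 of 164 CD150L members. Further genes of the higher group with at least 50 CPM were Bex4 (58.8 against 14.7 CPM), the cytokine signalling suppressor Socs2 (50.1 against 18.45), the metallothionein Mt1 (65.5 against 27.9) and the transcription factor Tcf15 (65.3 against 29.3), which marks quiescent HSCs. Their log2 ratios were 2.00 for Bex4, 1.44 for Socs2, 1.23 for Mt1 and 1.16 for Tcf15. In the other kept cells the log2 ratios were larger for Bex4 (2.33), Socs2 (1.65) and Tcf15 (1.42), and 1.17 for Mt1, so these differences were not limited to the members. Bex4 and Socs2 also stayed beyond 2-fold in all 14 settings. Nupr1, a stress-responsive nuclear protein, was at 174 CPM in CD150H and 89.4 CPM in CD150L members, short of 2-fold (log2 ratio 0.96). It was past 2-fold in 3 of 14 settings, with a log2 ratio of 1.355 when cells were thinned before the rule. In the other kept cells its log2 ratio was 1.73 (78.2 against 23.6 CPM).

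The windows before the start of Pf4 and Slamf1 are shown because they were searched for letters bound by blood transcription factors: GATAA, the core bound by GATA factors, and GGAAGT, a core bound by ETS factors, on either strand. The sequences are from RefSeq (GRCm38.p6, plus strand, the 250 bases before a transcript start), with motif letters in capitals. Of 5 genes looked up (Vwf, Pf4, Cavin2, Slamf1 and Cd34), 4 had an entry (all but Vwf).
Pf4 (chr5:90772185-90772434): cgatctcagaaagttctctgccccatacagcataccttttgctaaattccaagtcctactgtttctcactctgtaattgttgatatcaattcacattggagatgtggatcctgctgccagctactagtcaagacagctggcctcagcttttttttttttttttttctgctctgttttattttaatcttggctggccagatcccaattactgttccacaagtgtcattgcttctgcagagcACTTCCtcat
Slamf1 (chr1:171766882-171767131): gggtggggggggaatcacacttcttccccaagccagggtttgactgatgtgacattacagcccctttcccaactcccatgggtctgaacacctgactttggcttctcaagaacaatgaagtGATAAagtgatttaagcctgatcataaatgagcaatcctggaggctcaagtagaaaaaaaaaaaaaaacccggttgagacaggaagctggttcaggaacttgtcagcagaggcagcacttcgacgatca
The Pf4 window holds 1 GGAAGT, as its reverse complement, and no GATAA. The Slamf1 window, whose last base is the first of the gene's annotated span, holds 1 GATAA and no GGAAGT. The Cavin2 and Cd34 windows hold neither. Of 32536 distinct windows of this length, 22.5% hold GATAA and 19.8% hold GGAAGT, so matches of this kind are common and are descriptions only.

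**Figure D3:**
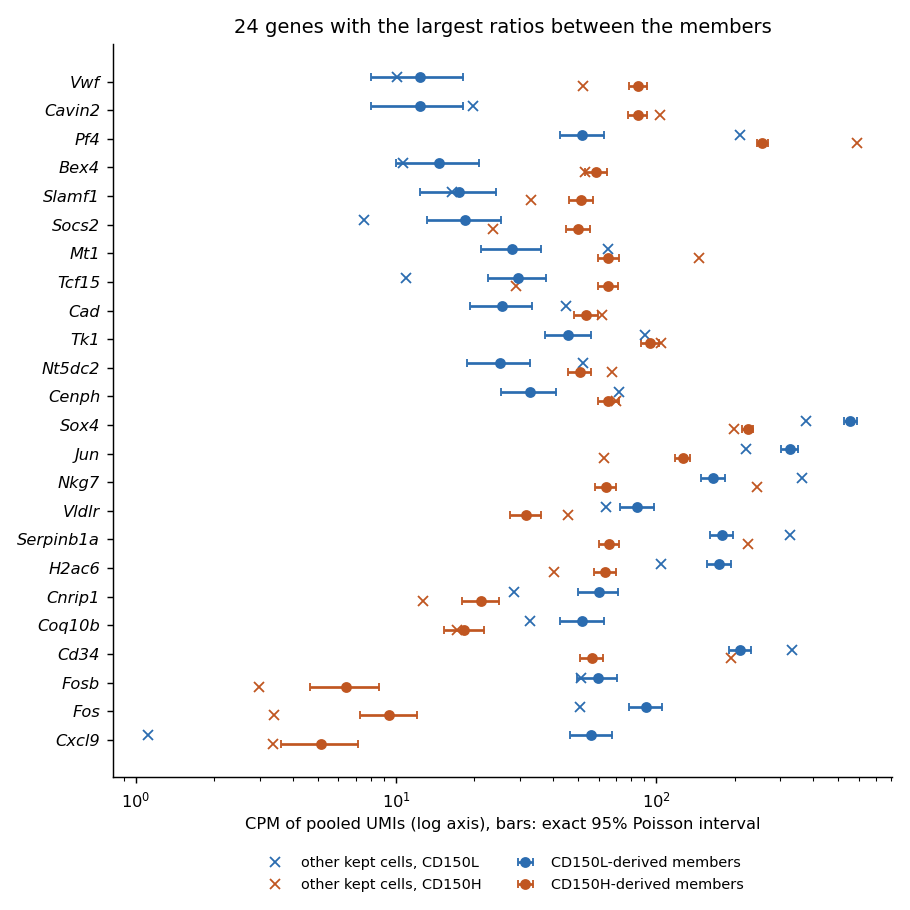
CPM of pooled UMIs (x axis, log scale) of the 24 named genes in CD150L-derived (blue) and CD150H-derived (orange) members, circles with exact 95% Poisson intervals, and in the other kept cells of each library (crosses). Vwf and Cavin2 stand at 12.3 CPM in CD150L members and at 85.2 and 84.9 CPM in CD150H members, and the crosses of Pf4 lie to the right of its circles.

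Genes lower in CD150H-derived members are given in 3 sets. The first were immediate early genes, which cells switch on within minutes of a stimulus or of handling. Fos stood at 9.41 CPM (7.28 to 12.0) in CD150H and 91.3 CPM (78.9 to 105) in CD150L members, a log2 ratio of -3.28, and Fosb at 6.42 and 59.6 CPM, a log2 ratio of -3.22. Jun stood at 126.5 and 326 CPM, a log2 ratio of -1.37 that was -0.85 among members with 10000 to 20000 UMIs. Of 12 immediate early genes compared, 0 were higher and 8 lower past 2-fold, with a median log2 ratio of -1.14. The other kept cells of the 2 libraries had a median of -1.16 for this list, where the log2 ratios were -3.91 for Fos, -4.10 for Fosb and -1.82 for Jun. Fresh HSCs gave 68.0 CPM of Fos in the old and 279 CPM in the young library. Among members with a Slamf1 UMI the log2 ratio of Fos was -0.84, with 20.0 CPM in 33 CD150L cells.

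The second were further named genes of several kinds. Cd34, whose product is absent from the donor gate and gained as HSCs turn into progenitors (chromosome 1, 194938821 to 194961292), stood at 56.5 CPM (51.1 to 62.3) in CD150H members and 210 CPM (191 to 230.5) in CD150L members. Its log2 ratio was -1.90 (-2.09 to -1.70) against -0.78 in the other kept cells, where it stood at 194 and 332 CPM. Cd34 was detected in 31.2% of thinned CD150H and 66.7% of thinned CD150L members. These shares were 50.2% and 78.5% in the other kept cells, and 62.6% and 83.0% in granulocyte-monocyte-primed cells. Serpinb1a, an inhibitor of neutrophil proteases (chromosome 13, 32842092 to 32853206), stood at 65.9 and 178 CPM, a log2 ratio of -1.44 against -0.53 in the other cells. Nkg7, a granule protein of cytotoxic cells that is also found in progenitors, stood at 63.9 and 165 CPM (log2 ratio -1.37, beside -0.57 in the other cells). Cd34, Serpinb1a and Nkg7 stayed below 0.5-fold in all 14 settings. Their levels were higher in barcodes with under 500 genes than in members. There Cd34 stood at 89.4 (CD150H) and 288 CPM (CD150L), Serpinb1a at 139 and 258 CPM, and Nkg7 at 202 and 331 CPM. The part of RNA free in the droplets in these differences was not tested. Sox4, a transcription factor of lymphoid and other progenitors, stood at 225 and 556 CPM (log2 ratio -1.31, beside -0.92), and Cd27, a receptor of the tumour necrosis factor family, at 48.35 and 98.4 CPM (log2 ratio -1.02, beside -0.69). Sox4 was higher in members than in the other cells, which had 198 and 375.5 CPM, while Cd27 stood at 58.8 and 94.6 CPM there.

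The third was Hlf, which lay on the opposite side from Slamf1, Tcf15 and Vwf. It stood at 211 CPM in CD150H and 430 CPM in CD150L members, a log2 ratio of -1.03 (-1.15 to -0.91) against -0.997 in the other kept cells. Among members with 10000 to 20000 UMIs the log2 ratio was -0.06 for Hlf, -0.32 for Sox4 and -0.26 for Cd27.

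Some ratios rested on few cells. Cxcl9, a chemokine induced by interferon gamma, stood at 5.14 against 56.3 CPM, but 99.2% of its CD150L UMIs lay in 1 cell and it was detected in 2 CD150L and 3 CD150H members. In the other cells its log2 ratio was 1.59, the opposite direction. Ctsg had 64.7% of its CD150L UMIs in 1 cell. Hbb-bs, a beta globin gene, stood at 22.1 CPM in CD150H and 6.15 CPM in CD150L members, with 38.1% of its CD150H UMIs in 1 cell, and was detected in 63 CD150H and 12 CD150L members. In the other cells the Hbb-bs log2 ratio was -1.42.

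Gene groups are given next as counts past 2-fold and medians beside those of all 6672 genes (35 higher, 63 lower, median 0.01). Of 20 HSC genes 17 were compared: Slamf1, Tcf15 and Ctnnal1 were higher, Hlf was lower, and the median was 0.02. Among members with 10000 to 20000 UMIs the median of this list was 0.56. Of 29 HSC transcription factors compared, Tcf15 was higher and Hlf and Gfi1 lower, with a median of -0.05. Lmo2 was the most abundant of them, at 734 and 762 CPM. Of 7 megakaryocyte genes compared, 3 were higher (Vwf, Cavin2 and Pf4) and 0 lower, and the median was 0.34 (0.63 in the other cells). The summed level of the list of 12 was 774 against 374 CPM, or 2.07-fold, beside 2.20-fold in the other kept cells, and Pf4 made up 256 and 52.0 CPM of the member sums. Selp (P-selectin), a further member of that list, had a log2 ratio of -0.02.

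Cell cycle genes leaned towards CD150H without passing 2-fold as a rule. All 42 S phase genes compared had log2 ratios above 0 (3443 of all 6672 did), with a median of 0.53 in members and 0.10 in the other cells, and 2 passed 2-fold. Of 51 G2/M genes 50 were above 0, with a median of 0.52 in members and 0.23 in the others. Scored by these genes, 72.6% of CD150L members (65.1 to 79.2) and 45.5% of CD150H members (39.6 to 51.6) were called G0/G1. After thinning these shares were 70.2% and 46.2%. In the other kept cells the shares were 31.9% and 19.3%. Within members of 10000 to 20000 UMIs (75 of them CD150L-derived) the S phase median was -0.62 and the G2/M median -0.50. Cells in cycle hold more RNA, and members scored G0/G1 had medians of 9957 (CD150L) and 17453 UMIs (CD150H). This range therefore also chose cells by phase. Depth and phase cannot be told apart in it, and its medians cannot show what depth did to the lean. Cenph and Tk1 rank among the named higher genes at log2 ratios of 1.004 and 1.045 (-0.03 and 0.20 in the other cells). In that range, chosen partly by phase, they stood at -0.61 and -0.98.

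In lists of stress, immunity and metabolism few genes passed 2-fold. Of 31 interferon-response genes, 0 passed 2-fold and the median was -0.04, with Ifitm3 at 1478 and 1116 CPM. Ifitm1 went the other way in members, at 471 CPM (CD150H) and 577 CPM (CD150L), a log2 ratio of -0.29 beside 0.13 in the other cells. Of 24 chaperone genes, 0 passed, 23 had log2 ratios above 0 and the median was 0.38 (0.26 in the other cells), but -0.05 among members with 10000 to 20000 UMIs. Medians were 0.18 for 19 genes of the endoplasmic reticulum stress response (1 higher, Hyou1), 0.13 for 76 oxidative phosphorylation genes (62 above 0), 0.04 for 15 glycolysis genes, 0.03 for 14 MHC class I genes and -0.06 for 81 ribosomal protein genes, with 0 past 2-fold in the last 4 lists. Of 11 cytokine receptor genes compared, 0 passed 2-fold and the median was -0.34. Kit, the receptor of stem cell factor, stood at 147.5 and 188 CPM.

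**Figure D4:**
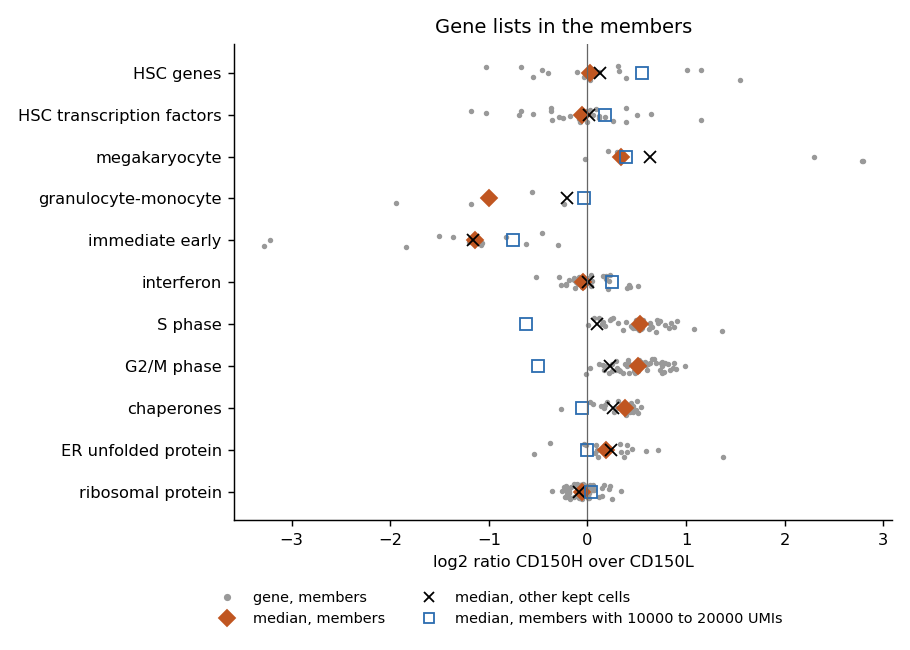
Log2 ratio of CD150H over CD150L (x axis) for the genes of each list in the members (grey points), with the list's median in members (diamonds), in the other kept cells (crosses) and in members with 10000 to 20000 UMIs (open squares). S phase and G2/M diamonds lie at 0.53 and 0.52 while their squares lie at -0.62 and -0.50.

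Markers of other cells differed in how their summed levels in members stood to those in the other kept cells. The summed level of 15 granulocyte-monocyte genes was 525 CPM in CD150H and 880 CPM in CD150L members, against 1667 and 1881 CPM in the other cells. The median log2 ratio of its 5 compared genes was -0.99 over all members, -0.03 among members with 10000 to 20000 UMIs and -0.21 in the other cells. Prtn3 (proteinase 3) led with 242 and 481 CPM, Fcnb was at 0 in both groups, and of the 5 genes 0 were higher and 2 lower. Of 12 lymphoid genes measured, 6 were at 0 in each group, Rag1, Rag2, Il7r and Ly6d among them (and Flt3, by the rule), and the list summed to 36.5 and 81.4 CPM (69.8 and 161 in the other cells). Flt3 made up 12.9 and 35.7 CPM of the sums in the other cells, a part of the contrast that the rule fixed. The B, T and NK cell list summed to 88.7 and 198 CPM (266 and 389 in the other cells) with Nkg7 the most abundant, while Cd3e, Cd3d and Ms4a1 were at 0. Mast cell and basophil genes summed to 5.85 and 8.99 CPM (136 and 105 in the other cells). For 3 lists the sum was higher in members, mostly through 1 gene each. Erythroid genes summed to 1096 and 942 CPM, with Car2 (carbonic anhydrase 2) the most abundant, against 863 and 886 CPM in the other cells. The beta globin gene Hbb-bt was at 350.9 and 350.5 CPM in members against 117 and 164.5 CPM, and the other 12 genes summed to 745 and 591 CPM against 746 and 722 CPM. Of the 13 erythroid genes 10 were lower in the members of both libraries, Gata1 (12.7 and 5.68 against 29.4 and 15.5 CPM) and Klf1 (1.71 and 1.42 against 10.5 and 4.85 CPM) among them. Macrophage genes summed to 282 and 294 CPM against 216 and 218 CPM, of which Lyz2 made 219 and 259 against 171 and 181 CPM. Without Lyz2 the sums were 62.5 and 35.0 CPM against 44.3 and 36.6 CPM. The complement gene C1qc stood at 4.85 CPM in CD150H members and at 0.473 CPM (1 UMI) in CD150L members, and C1qa at 7.85 CPM (5.91 to 10.2) and 3.31 CPM (1.33 to 6.82), with overlapping intervals. Stromal or endothelial genes summed to 27.1 and 37.8 CPM against 15.3 and 19.03 CPM, and without Emcn to 8.56 and 6.15 against 7.25 and 4.23 CPM. The part of the granulocyte-monocyte difference in the lower genes was not tested.

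Lists of HSC aging and of CD150 were taken from the study, which chose most of them on samples of this series, so they are not independent of it. Of 27 compared genes of a public HSC aging list, 4 were higher (Vwf, Gstm2, Fhl1 and Mt1) and 2 lower (Vldlr and Maf), with a median of 0.34 in members and 0.34 in the other cells. Across settings that member median ran from -0.0011 (members with a Slamf1 UMI) to 0.73 (members with 10000 to 20000 UMIs). Of 40 compared genes that the study lists as higher in old HSCs, 6 were higher and 3 lower, with a median of 0.14 (0.20 in the other cells). Of 121 compared genes that it lists as lower in old HSCs, 7 were higher and 10 lower, 86 had log2 ratios above 0 and the median was 0.40 (0.12 in the other cells). That list shares 17 of its compared genes with the S phase list and 22 with the G2/M list. Of 51 genes counted as CD150-positive, 4 were higher (Slamf1, Gstm2, Fhl1 and Slc14a1) and 0 lower, and of 66 CD150-negative genes 0 were higher and 4 lower (Cd27, Nkg7, Serpinb1a and Wfdc17). The medians were 0.10 and -0.12.

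Members also varied among themselves. CD150H members without a Slamf1 UMI had 65.4 CPM of Vwf (55.1 to 77.1), below the 94.0 CPM (85.6 to 103) of those with one, yet above the 12.3 CPM of all CD150L members. In CD150L members the corresponding levels were 10.2 CPM (5.95 to 16.4) and 20.0 CPM (9.16 to 38.0). Cells admitted by a single Procr UMI differed from those with more in the CD150H library: Pf4 stood at 435 against 137 CPM, Cavin2 at 115 against 64.5, Hlf at 143 against 256 and Mecom at 114 against 160. Vwf did not follow Pf4 and Cavin2 (85.8 against 84.7 CPM), and Selp went the other way (80.4 against 104 CPM). The median depths of the single-Procr cells and of those with more were 27325 and 21473 UMIs. One CD150H member alone held 277 of the 1793 Pf4 UMIs, and on which side of the split it lay was not looked up. In the CD150L library the same split gave 49.6 against 55.8 CPM for Pf4 and 436 against 421 CPM for Hlf.

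Fresh HSCs were set beside the members as levels only, in separate libraries of 2758 old and 1104 young kept cells. Vwf stood at 48.4 CPM in the old and 29.6 CPM in the young library, between the levels of the 2 member groups. Cavin2 stood at 275 and 51.5 CPM, and Nupr1 at 314 and 42.7 CPM. Cd34 stood at 46.6 CPM in fresh old HSCs, where Elane was at 0.34 CPM, and at 80.8 CPM in fresh young HSCs. CD150H and CD150L members had 56.5 and 210 CPM of Cd34. Fresh HSCs were sorted as CD34-negative, while the day 14 cells passed an LSK gate only, so these levels come from unlike gates.

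Bulk libraries that played no part in choosing the cells gave replicated values for the same genes. In bulk RNA, fewer cells of a type and less RNA per cell cannot be told apart. In old HSCs sorted by CD150, before any transplantation, G4 was compared with G1 by limma on log2(FPKM + 1). Of 11673 genes, 13 (0.111%) were higher and 2 (0.0171%) lower in G4 at an adjusted p under 0.05 and more than 2-fold, and 974 (8.34%) had an unadjusted p under 0.05. With the mouse as a block, 15 were higher and 4 lower. Of the 35 genes higher in CD150H members, 3 (Vwf, Slamf1 and Gstm2) were called higher and 0 lower. Of the 63 lower genes 60 were tested, and 2 (Serpinb1a and Wfdc17) were called lower and 0 higher. The medians of the 2 sets were 0.22 and 0.04 beside 0.01 for all genes.

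Vwf was at 28.6, 33.8 and 39.1 FPKM in the G1 mice and 86.2, 94.0 and 65.9 FPKM in the G4 mice, with G2 (54.7, 57.5 and 48.95) between them and G3 (82.4, 97.4 and 68.0) overlapping G4. Its log2 fold change was 1.25 ± 0.19 (SE, n = 3 per group; limma adjusted p = 0.0274), and it lost the call when G1 replicate 1, G1 replicate 2, G3 replicate 1, G4 replicate 1 or G4 replicate 2 was left out (adjusted p = 0.0753, 0.0805, 0.0638, 0.188 and 0.12). The log2 fold changes of Vwf without these libraries were 1.14 to 1.255. It also lost the call with every detected gene tested (log2 fold change 1.25, adjusted p = 0.0661). Serpinb1a was at 49.0, 54.9 and 67.5 FPKM in G1 and 17.4, 20.4 and 14.9 FPKM in G4, a log2 fold change of -1.64 ± 0.20 (limma adjusted p = 0.00418). Slamf1, which encodes the antigen of the sort, was at 29.4, 29.2 and 15.2 FPKM in G1 and 102.3, 79.3 and 89.0 FPKM in G4 (log2 fold change 1.88 ± 0.23, limma adjusted p = 0.00418). Without G4 replicate 1 neither Slamf1 nor Serpinb1a was called (log2 fold changes 1.79 and -1.64, adjusted p = 0.0526 for each). The G1 and G4 values of these 3 genes did not overlap, as was the case for 7.26% of all 11673 tested genes with G4 above G1 and 7.14% with G4 below.

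Other genes of the members did not pass in G4 against G1. Nkg7 was at 44.2, 84.7 and 151 FPKM in G1 and 23.9, 14.7 and 26.3 FPKM in G4, a log2 fold change of -1.93 (limma adjusted p = 0.072). It was called when G1 replicate 1 was left out (log2 fold change -2.37, adjusted p = 0.0131). Cavin2 had a log2 fold change of 0.42 (limma adjusted p = 0.455) and Cd34 one of -0.77 (adjusted p = 0.522). Pf4 pointed the other way from the members, with 112, 249 and 178 FPKM in G1 and 87.6, 85.1 and 89.0 FPKM in G4 (log2 fold change -0.96, adjusted p = 0.272). The G1 and G4 values of Nkg7 and of Pf4 did not overlap either. Fos and Hlf had log2 fold changes of 0.21 and 0.06 (adjusted p = 0.866 and 0.93).

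**Figure D5:**
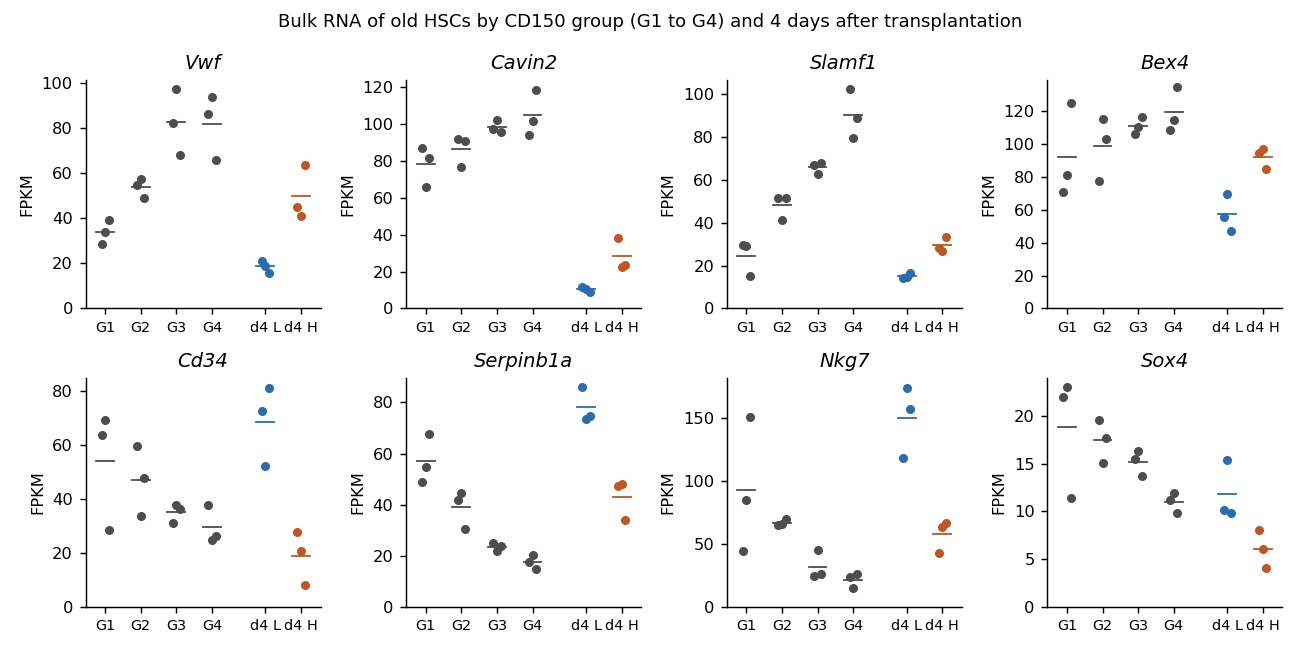
FPKM (y axis, from 0) of the genes named above each panel in each bulk library of old HSCs by CD150 group (G1 to G4) and on day 4 after transplantation (CD150L and CD150H); points are libraries and lines are means of 3. Vwf and Slamf1 of G4 lie above those of G1 without overlap, and Serpinb1a of G4 lies below G1.

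On day 4 after transplantation, limma called 0 of 11077 genes higher and 0 lower in CD150H than in CD150L (0% each way), although 826 genes (7.46%) had an unadjusted p under 0.05. Vwf was at 21.3, 19.04 and 15.6 FPKM in CD150L and 45.0, 41.2 and 63.5 FPKM in CD150H (log2 fold change 1.36 ± 0.21, limma adjusted p = 0.221). Cavin2 was at 11.7, 10.7 and 8.93 FPKM against 38.4, 22.65 and 23.6 FPKM (log2 fold change 1.32, adjusted p = 0.282). Cd34 was at 72.5, 52.2 and 81.1 FPKM against 27.9, 20.85 and 8.12 FPKM (log2 fold change -1.94, adjusted p = 0.282). Nkg7 was at 119, 174 and 157 FPKM against 42.4, 63.3 and 67.0 FPKM (log2 fold change -1.38, adjusted p = 0.186). These 4 genes had values without overlap between groups, in the direction of their ratio in the members, and missed the adjusted threshold. Of all 11077 genes, 6.86% had every CD150H value above the CD150L values and 6.38% had every one below. Socs2 had no overlap either but went in the direction opposite to the members, at 65.5, 61.45 and 53.85 FPKM in CD150L and 28.8, 34.5 and 43.4 FPKM in CD150H (log2 fold change -0.76, adjusted p = 0.406). Pf4 had a log2 fold change of 0.13 (adjusted p = 0.914) and Hlf one of -0.21 (adjusted p = 0.846). The medians over the higher and lower member genes were 0.27 and -0.26, beside 0.01 for all genes.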

How the data were processed

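The authors sequenced 10x Genomics 3' libraries and deposited UMI counts per gene and barcode from Cell Ranger on mm10; each matrix was used as deposited. Bulk values were deposited by the authors as FPKM, for which the submitters' processing notes name Cufflinks, HISAT2 2.0.0 and SAMtools 1.14; read depth cannot be read from these values. Members, gene lists and tests were chosen with earlier results of these data known.

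Kept barcodes had at least 2000 genes (800 in the fresh libraries) and at most 5% mitochondrial UMIs. UMIs were summed over cells, scaled to CPM and compared as ratios (Python 3.11.15, SciPy 1.17.1), with exact Poisson intervals per level and a conditional exact binomial interval per ratio. Genes below 20 CPM in both groups were left out. Member UMIs totalled 2113947 (CD150L) and 7011065 (CD150H). Named were list genes, the 12 largest and 12 smallest ratios at 50 CPM or more, the 5 largest differences from other cells in each direction, genes the study used for its stem cells and sort, and the 12 highest and 8 lowest genes of members against other cells among those at 50 CPM or more in either set of each library, without the rule's genes. Phases were scored with scanpy 1.11.5. Scrublet called 9 cells in each library (0.374% of CD150L and 0.466% of CD150H, 0 and 4 of them members); none was removed. Bulk genes averaging 1 FPKM or more in some group were tested with limma 3.58.1 (R 4.3.3, trend) on log2(FPKM + 1), a scale that understates the fold of low genes, with Benjamini-Hochberg adjustment. The code was tested on simulated data. Mouse numbers mark one mouse across G1 to G4; the correlation of same-mouse deviations ran from -0.432 to 0.488 (median 0.0797). Alternatives are under the closing section.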

Additional observations from a re-analysis of the deposited data

Results flagged for a closer look

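Cxcl9 stood at a log2 ratio of -3.46 (CD150H over CD150L) in members and 1.59 in the other kept cells, opposite directions past 2-fold. That difference was not tested. Of the 119 CD150L member UMIs, 118 lay in a single cell.

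Barcodes with under 500 detected genes, which are outside the kept cells, held platelet transcripts in the CD150H library: Pf4 at 612 CPM and Vwf at 56.0 CPM, against 239 and 6.62 CPM in the CD150L library. The CD150L level of Vwf rests on 2 UMIs (interval 0.80 to 23.9 CPM). Levels in the other kept CD150H cells were near, at 592 CPM for Pf4 and 52.3 CPM for Vwf. Cavin2 stood at 102.5 and 23.2 CPM there, and Cd34 at 89.4 and 288 CPM. What these barcodes are was not tested.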

How the results depend on the processing

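The member share moved beyond its counting interval with at least 3000 genes (CD150L 5.74%), with at least 2 Procr UMIs (2.66% and 9.21%) and after thinning (CD150H 10.3%). Counts of genes past 2-fold (35 higher, 63 lower) became 82 and 96 with at least 2 Procr UMIs, 80 higher after thinning, 161 and 212 in Slamf1-positive members (33 CD150L cells), 58 higher with the mean of each cell's CPM, 104 lower when ribosomal protein and mitochondrial genes were left out of the scaling, 12 and 22 at 50 CPM or more, and 60 higher in G0/G1 members. Members of 10000 to 20000 UMIs, an alternative chosen after seeing the data, gave 85 higher. In that range 12 of the 35 higher and 12 of the 63 lower genes were past 2-fold (85 and 91 in all), and after thinning 17 of the 35 and 27 of the 63 were (80 and 71 in all). Reversed log2 ratios were -0.0149 for Nt5dc2 after thinning, and -0.61 for Cenph and -0.98 for Tk1 at 10000 to 20000 UMIs. That range also chose cells by phase. Slamf1 stood at -0.15 among Slamf1-positive members, a setting that chose cells by the gene measured. A single UMI is a higher CPM in the shallower CD150L cells there (median 12412 against 25797 UMIs), so this value cannot show a reversal. For the other shifts the cause was not tested.

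In bulk, G4 against G1 gave 5 higher genes with every detected gene tested (more genes share the adjustment), and 15 higher and 4 lower with the mouse as replicate block, which changed no call of a gene named above in that comparison. Leaving out a library gave 2 to 22 higher and 0 to 3 lower genes. The count of higher genes was 4, 3 and 22 without G1 replicates 1, 2 and 3, 3 and 7 without G3 replicates 1 and 3, and 2, 3 and 4 without G4 replicates 1, 2 and 3. On day 4 leaving out a library gave 0 to 2 higher genes (2 without CD150L replicate 1) and 0 to 8 lower (8 without CD150L replicate 3). The labels do not say whether replicate numbers on day 4 pair the samples. Correlations of same-number deviations ran from -0.0757 to -0.00651 over 3 pairs, too few to decide it. With the replicate number as block, limma gave 1 higher and 1 lower gene, Nkg7 (adjusted p = 0.0133). Depth limits the CD150L side most: Vwf and Cavin2 rest on 26 UMIs each there.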
